A study of Homo sapiens with 26 samples.

Results

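CDH1 (E-cadherin) and CDH2 (N-cadherin) were followed through ribosome profiling of Huh7 cells, a human hepatocellular carcinoma line, exposed to PF-06446846, a small molecule that stalls the ribosome on selected nascent chains. The members were found by gene symbol, 1 transcript each, so that they are 2 of the 12325 transcripts measured. CDH1 was chosen from the first study's libraries treated with 1.5 µM for 60 min, by the divergence of its cumulative read distribution from vehicle and by its reads beyond that point. Its values in that contrast are therefore given as a description, without a test. CDH2 was taken beside it as a second classical cadherin of these cells.

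The data comprised 26 libraries in 2 studies. In the first, the compound was given at 1.5 or 0.3 µM, or the DMSO vehicle alone, over 10 or 60 min, and 3 ribosome-footprint (ribo-seq) libraries were made per group, 18 in all. In the second, only the 1.5 µM dose and vehicle were used, both over 60 min, and each group gave 2 ribo-seq libraries and, from the same cultures, 2 of mRNA-seq. All cells were of 1 line, and cycloheximide was present only from harvest. Coding-region reads ranged from 6414227 to 22224137 per library. The hepatocyte genes SERPINA1 and APOA1 stood at 1927 and 1502 RPM (reads-per-million units) per kilobase in the second study's vehicle libraries, against 8.49 for the endothelial gene PECAM1 and 0 for the fibroblast gene DCN, which stood at 19.9 in the mRNA-seq libraries of the same cultures.

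Classical cadherins are single-pass membrane proteins that hold neighbouring cells together at adherens junctions. Their extracellular cadherin repeats bind calcium and the cadherin of the opposing cell, and their cytoplasmic tail binds β-catenin, which links it through α-catenin to actin, and p120-catenin, which stabilises the cadherin at the membrane. They are made on ribosomes docked at the endoplasmic reticulum, with an N-terminal signal peptide that is later removed. E-cadherin is the typical cadherin of epithelia, including hepatocytes, and N-cadherin is typical of neural and mesenchymal cells. The exchange of the first for the second is a known feature of epithelial-mesenchymal transition.

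Each coding sequence was divided at its most hydrophobic window of 21 codons, which was taken as the transmembrane segment. In CDH1 this window covered codons 710 to 730 of 883 and held 11 leucine and 5 isoleucine codons. In CDH2 it covered codons 724 to 744 of 907 and held 6 leucine, 7 isoleucine and 3 valine codons. The window and the 15 codons after it are called the membrane stretch. The codons before it are the 5′ part (to codon 709 in CDH1 and 723 in CDH2), and those after it are the 3′ part, which encodes most of the cytoplasmic tail (138 codons in CDH1 and 148 in CDH2). Of 870 aligned residues, 429 were identical between the proteins (49.3%). Identity was 69.6% over 135 residues beyond the stretch, and 9 of 21 residues were identical in the CDH1 window. No run of 26 bases in either coding sequence occurred in another coding sequence searched. Only exact runs were sought, and untranslated regions, to which reads were aligned too, were not searched.

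The following sequences show the codons at which treated footprints piled up. Capitals mark the codon in the ribosomal P site, and each run covers 10 codons of the GENCODE coding sequence, identical to GRCh38 at all 30 bases. The first CDH1 run lies at chr16:68738321-68738350 (plus strand), in exon 2 of 16. The second lies at chr16:68828176-68828205, in exon 14 of 16, and its last 2 codons lie beyond the hydrophobic window. The CDH2 run is on the minus strand of chromosome 18 and spans a junction, with 7 bases at chr18:27985000-27985006 in exon 13 and 23 bases at chr18:27983061-27983083 in exon 14. All 3 runs are coding sequence.
CDH1 codons 25 to 34, codon 31 in capitals: ccggagccctgccaccctGGCtttgacgcc
CDH1 codons 723 to 732, codon 729 in capitals: ctgattctgctgctcttgCTGtttcttcgg
CDH2 codons 735 to 744, codon 741 in capitals: ctgcttatccttgtgctgATGtttgtggta

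Over the whole coding sequence, the footprint density of the cadherins differed little between groups. In the second study CDH1 stood at 91.7 ± 3.16 RPM per kilobase of coding sequence with 1.5 µM (SD, n = 2) and 86.1 ± 2.90 with vehicle. In the first study the CDH1 group means ran from 67.4 ± 9.30 (1.5 µM, 10 min) to 77.1 ± 10.5 (vehicle, 10 min) (SD, n = 3). The first study's libraries overlapped between these groups, while in the second study both treated CDH1 libraries (93.9 and 89.5) were above both vehicle libraries (88.2 and 84.1). CDH2 stood at 92.4 ± 3.89 with 1.5 µM and 84.7 ± 4.03 with vehicle in the second study, also without overlap (95.1 and 89.6 against 87.6 and 81.9), and at 71.7 ± 7.01 to 79.7 ± 7.25 across the first study's groups. The second study's means were above the first study's for both genes. Footprint density was thus of similar size for the 2 cadherins. Other members of the family were lower in the second study's vehicle libraries, led by the calsyntenin CLSTN1 at 59.0 and the desmosomal cadherin DSG2 at 40.01 RPM per kilobase.

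Along CDH1, footprints were higher with 1.5 µM in the first 50 codons and before the membrane stretch, and lower in the codons that follow each of these regions. Footprints were summed in windows of 50 codons, a division chosen after values were seen and so given without a test. In codons 1 to 50 the log2 ratio of 1.5 µM to vehicle was 1.13 at 10 min, 0.86 at 60 min and 0.95 in the second study. In the next 3 windows, codons 51 to 200, it was between -1.40 and -1.19 at 10 min, between -1.14 and -0.95 at 60 min, and between -0.69 and -0.25 in the second study. Over codons 551 to 700 the ratios were positive in all 3 experiments, from 0.48 to 1.32. In codons 701 to 750, which hold the hydrophobic window, the ratios were 0.33 at 10 min, 0.63 at 60 min and 0.59 in the second study. Treated and vehicle libraries overlapped in that window at both times of the first study, and the ratios turned beyond it. Over the 3 windows from codon 751 to the end they were negative, from -1.82 to -1.18. The mRNA-seq libraries of the same cultures did not share this shape, with 17 of 18 CDH1 windows overlapping between treatment and vehicle. In CDH2 mRNA-seq, however, only 9 of 18 windows overlapped, with 6 higher and 3 lower. Separation of 2 and 2 libraries in a window is therefore a weak measure in the second study. Over all 9488 transcripts of at least 200 codons, the first 50 codons held 8.36% ± 0.33 of footprints with 1.5 µM and 6.96% ± 0.49 with vehicle at 10 min (SD, n = 3), 7.54% ± 0.51 and 7.38% ± 0.46 at 60 min (SD, n = 3), and 8.57% ± 0.07 and 8.29% ± 0.61 in the second study (SD, n = 2). The difference over all transcripts exceeded the SDs at 10 min only, and its part in the early CDH1 footprints there was not tested.

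**Figure D1:**
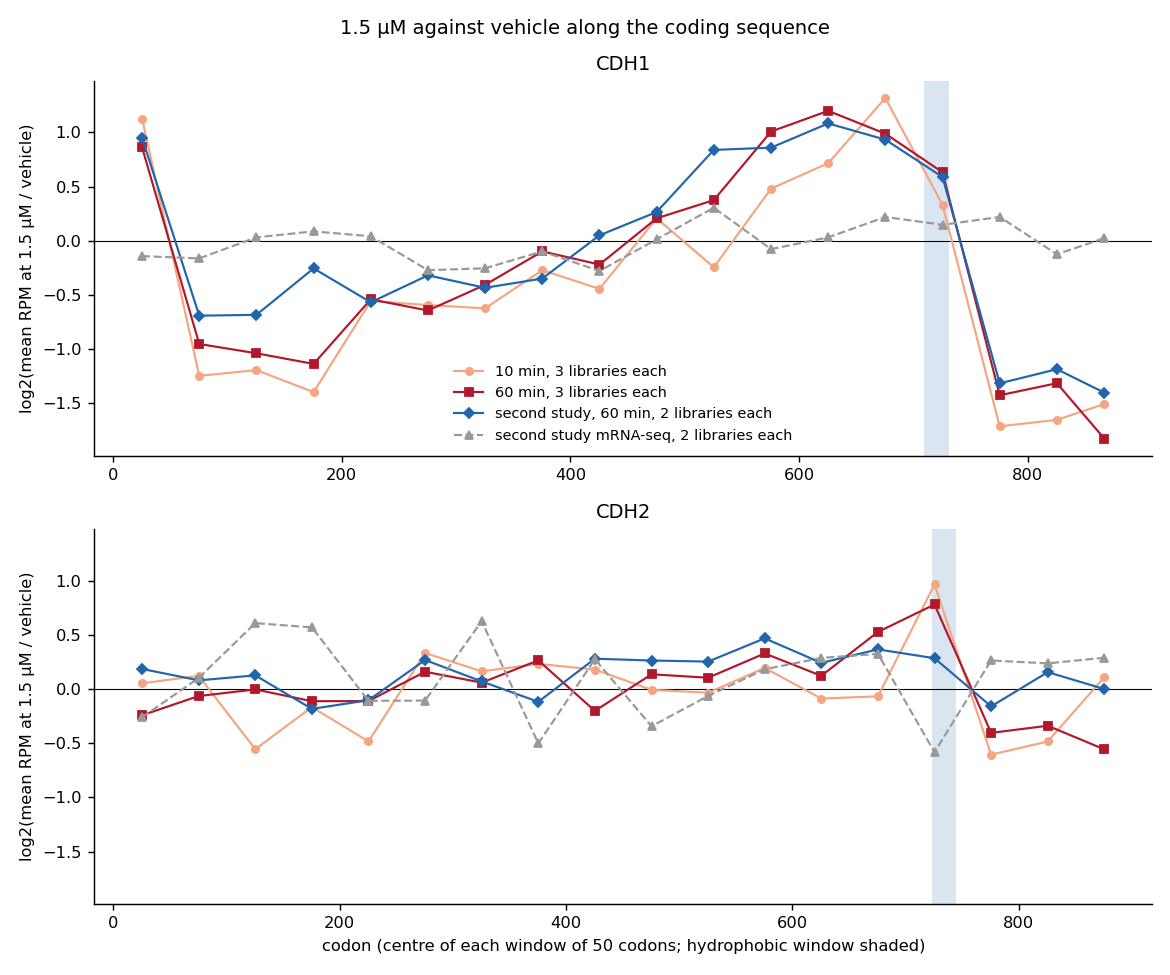
Footprints along CDH1 and CDH2 in windows of 50 codons, as the log2 ratio of 1.5 µM to vehicle against codon position, with 1 line per experiment. CDH1 is higher in its first window and over codons 551 to 700 and lower from codon 751 on (-1.82 to -1.18), where CDH2 lies between -0.61 and 0.16.

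Single codons stood out as well. CDH1 codon 729, a leucine codon at the end of the hydrophobic window, held 11, 37 and 37 footprints in the 3 libraries treated with 1.5 µM for 10 min and 6, 6 and 11 with vehicle. The second study gave 58 and 36 footprints with 1.5 µM and 10 in each vehicle library. Scaled to library depth, treated libraries were above all vehicle libraries of the same experiment. Codon 729 had the largest rise of any CDH1 codon in both experiments, from 0.708 ± 0.513 to 3.10 ± 1.30 RPM at 10 min (SD, n = 3) and from 0.927 ± 0.281 to 3.71 ± 1.48 in the second study (SD, n = 2). At 60 min in the first study, the contrast that chose the gene, it was second to codon 617, with 58, 16 and 25 footprints against 3, 2 and 2. The rise was present at 0.3 µM too, with 30, 73 and 23 footprints at 10 min and 24, 31 and 18 at 60 min. These are 3.11 ± 0.25 and 1.67 ± 0.25 RPM, and codon 729 was again the codon of largest rise. In mRNA-seq the codon held 1 fragment in each treated library and 2 and 0 in the vehicle libraries.

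CDH1 codon 31, a glycine codon of the propeptide just beyond the signal peptide, was the leading codon of the early pile-up. It held 16, 24 and 14 footprints with 1.5 µM at 10 min and 5, 0 and 1 with vehicle. The second study gave 28 and 26 against 5 and 4. The ranges did not overlap in RPM, which went from 0.407 ± 0.061 to 2.11 ± 0.27 in the second study (SD, n = 2). At 0.3 µM the libraries differed among themselves, with 19, 5 and 2 footprints at 10 min and 7, 6 and 13 at 60 min. Codons 729 and 31 were each taken as the largest rise of a region with 1.5 µM at 60 min in the first study. The regions were the membrane stretch and the first 50 codons. Codon 729 is also the main stall codon that the paper lists for CDH1. Neither codon was tested.

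**Figure D2:**
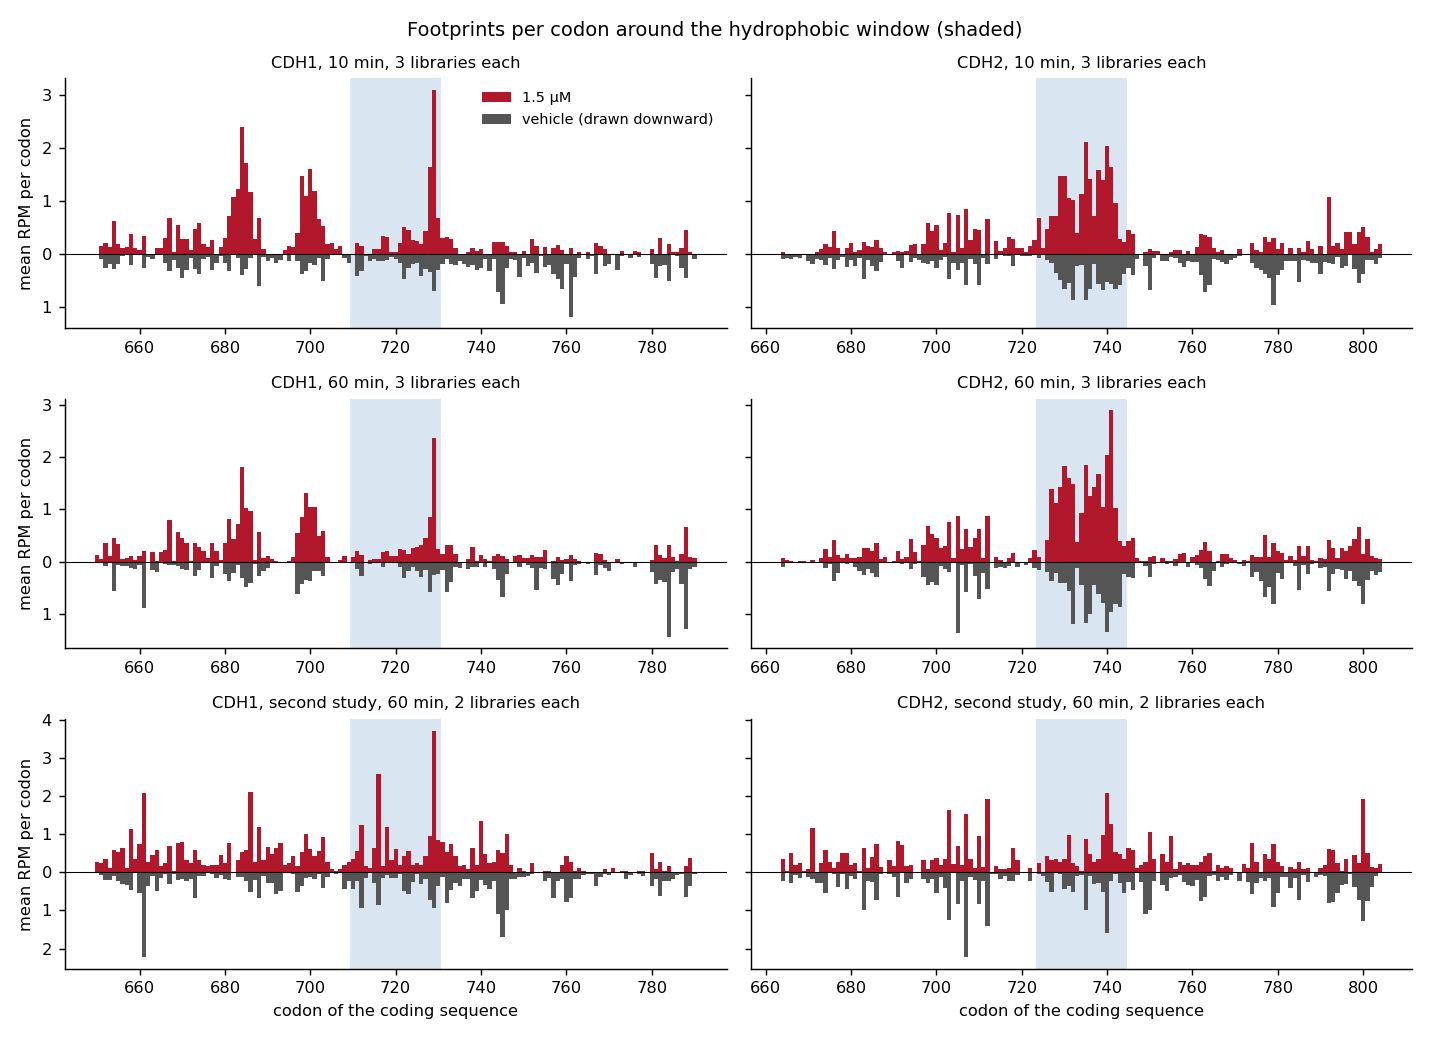
Mean RPM at each codon around the hydrophobic window of CDH1 and CDH2, treated and vehicle, by experiment. The tallest treated CDH1 position in the window is codon 729 (3.71 RPM with 1.5 µM in the second study, 0.927 with vehicle).

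The share of footprints on the membrane stretch was next compared in the libraries that did not choose CDH1, those of 10 min and of the second study. The stretch makes up 4.08% of CDH1 codons and 3.97% of CDH2 codons. CDH1 had 6.42, 5.30 and 6.81% of its footprints there with 1.5 µM at 10 min and 3.86, 5.72 and 3.49% with vehicle. In the second study it had 9.46 and 9.30% against 5.95 and 7.12%. The groups overlapped at 10 min, where vehicle replicate 2 exceeded 1 treated library, and were separate in the second study. The mean difference within experiments was 2.33 percentage points (two-sided exact permutation test, p = 0.0333, adjusted over 4 values p = 0.0333; smallest possible p = 0.0167), and it was in the direction of the mean in 4 of 5 same-numbered pairs (paired exact permutation p = 0.125, where 0.0625 is the smallest possible). By exact permutation the difference no longer passed (p = 0.05) without 1.5 µM replicate 1 (2.27) or 3 (2.17) or vehicle replicate 1 (2.21) or 3 (2.12) at 10 min, and it was 1.31 (p = 0.15) with the stretch ended 30 codons after the window. The share also depends on the reads beyond the stretch, which are part of its total. As RPM, the CDH1 stretch held 10.5, 10.97 and 11.3 with 1.5 µM at 10 min and 7.72, 13.4 and 6.24 with vehicle, which overlap. The second study gave 23.6 and 22.03 RPM against 13.9 and 15.9, which do not.

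CDH2 showed a rise of its own on the stretch. Its share was 10.4, 11.7 and 10.8% with 1.5 µM at 10 min against 6.02, 5.88 and 6.85% with vehicle. The second study gave 6.28 and 6.97% against 5.56 and 5.20%. No treated library overlapped a vehicle library in either experiment, and the same held in RPM (21.3 to 24.8 against 10.7 to 13.1 at 10 min, and 16.3 and 17.0 against 13.3 and 11.6 in the second study). In mRNA-seq of the second study's cultures the CDH2 share was 4.19 and 4.07% with 1.5 µM and 5.84 and 5.98% with vehicle. These did not overlap either, in the opposite direction, and were not tested. The footprint difference was 2.98 percentage points (exact permutation p = 0.0167, adjusted p = 0.0333, n = 5 per arm). The share was higher with 1.5 µM in 5 of 5 same-numbered pairs (paired exact permutation p = 0.0625, the smallest possible, so that this test could not pass). The footprint difference was larger at 10 min (4.71) than in the second study (1.24), a contrast that was not tested. At 60 min in the first study the CDH2 share was 8.47, 14.01 and 14.1% with 1.5 µM and 6.58, 6.83 and 6.87% with vehicle, whereas the CDH1 share was 7.77, 2.74 and 3.97% against 6.004, 2.32 and 2.27%. In CDH1, replicate 1 was the highest library of each 60-min group. CDH2 codon 741, a methionine codon, held 38, 26 and 37 footprints in those treated libraries and 9, 16 and 5 with vehicle, and 17 and 15 against 5 and 1 in the second study. Its 10-min counts were 9, 26 and 9 against 8, 5 and 7, and in mRNA-seq it held 6 and 0 fragments with 1.5 µM and 4 and 19 with vehicle. At 10 min the largest rise on the CDH2 stretch was at the neighbouring codon 740, with 9, 11 and 35 footprints against 11, 3 and 6 before scaling to depth.

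**Figure D3:**
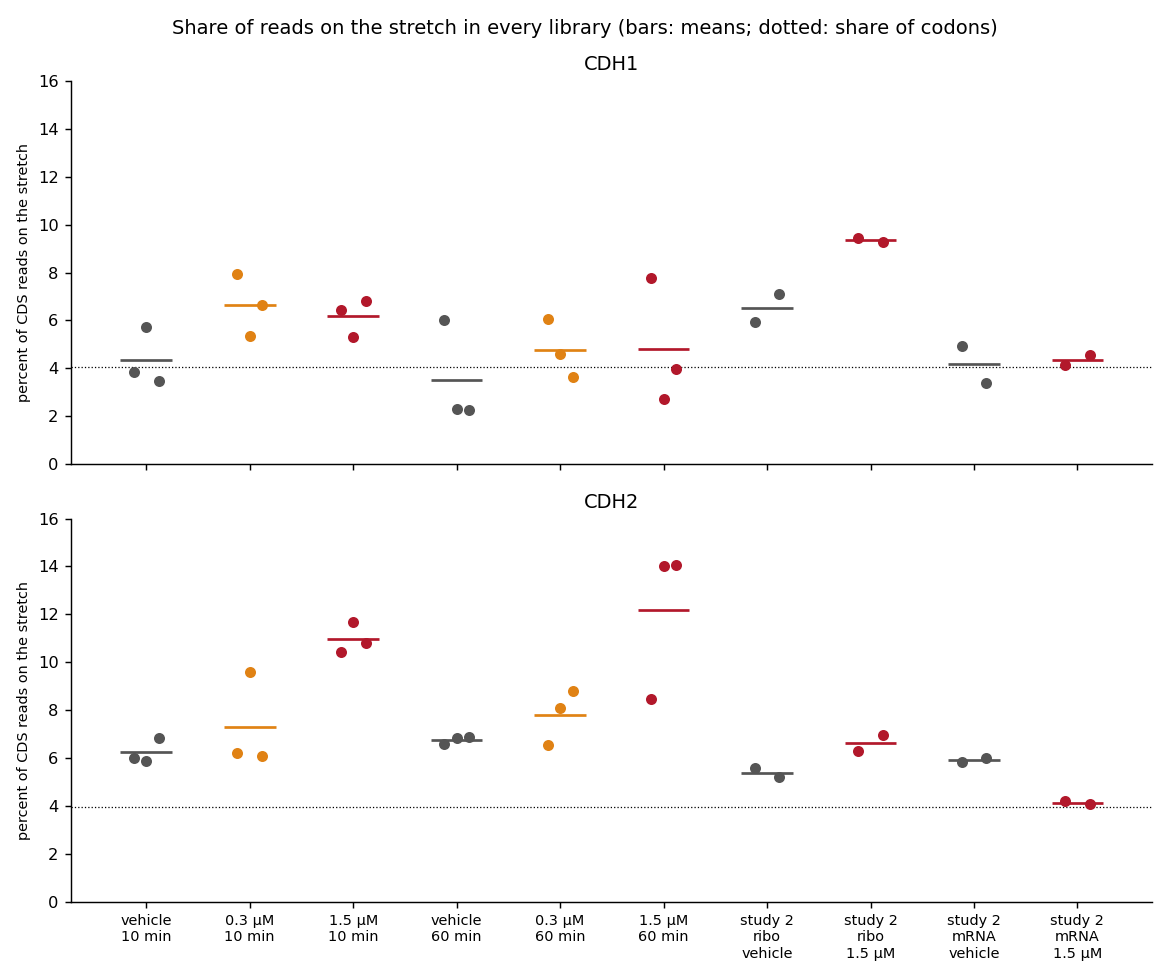
Percent of CDH1 and CDH2 footprints on the membrane stretch in each library, by treatment and experiment. In CDH2 every library treated with 1.5 µM at 10 min (10.4 to 11.7%) is above every vehicle library (5.88 to 6.85%), and the CDH1 groups overlap at 10 min.

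Beyond the stretch, footprints on CDH1 fell with 1.5 µM and those on CDH2 did not pass the test. Normalised CPM (counts-per-million units) of the CDH1 3′ part were 103 and 81.9 with 1.5 µM and 208 and 222 with vehicle in the second study. At 10 min they were 58.3, 72.8 and 74.2 against 171, 224 and 164. The groups were far apart in both. CDH1 changed by -1.22 ± 0.14 (SE) on the log2 scale in the second study (edgeR quasi-likelihood test, adjusted p = 3.70e-05) and by -1.44 ± 0.19 at 10 min (edgeR, adjusted p = 0.00135). By p it ranked 5 of 9616 transcripts tested in the former and 5 of 9048 in the latter. The paper, with its own cut and test, lists CDH1 at 60 min but not at 10 min. It also reports finding the same sensitive sequences again in the second study. Across all transcripts 0.135% were called in the second study, 11 lower and 2 higher, and 4.63% at 10 min, 281 lower and 138 higher, at a false discovery rate of 0.1. The 10-min count of 419 transcripts fell to 9 without 1.5 µM replicate 2, 15 without replicate 1 and 74 without vehicle replicate 2, and was 1203 without vehicle replicate 3, and CDH1 passed in each of these. In the 60-min libraries that chose it, CDH1 had 62.4, 70.5 and 52.3 normalised CPM against 179, 178 and 164, a log2 change of -1.50 ± 0.21.

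The CDH2 3′ part held 264 and 218 normalised CPM with 1.5 µM and 248 and 261 with vehicle in the second study. At 10 min it held 146, 169 and 151 against 162, 152 and 172. These ranges overlapped, and CDH2 was not called in either experiment, with log2 changes of -0.08 ± 0.12 (edgeR, adjusted p = 0.9999) and -0.06 ± 0.16 (adjusted p = 0.883). The description at 60 min in the first study was -0.36 ± 0.22.

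The 5′ part of neither gene was called. CDH1 changed by 0.21 ± 0.07 in the second study (edgeR, unadjusted p = 0.0135, adjusted p = 0.9998) and by 0.00 ± 0.12 at 10 min, and CDH2 by 0.14 ± 0.07 and 0.09 ± 0.11 on the log2 scale. Of all transcripts, 0.0898% and 2.35% were called for this part in those experiments.

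The ratio of 3′ to 5′ footprints puts both parts in 1 number for each library, and would be 0.195 for CDH1 and 0.205 for CDH2 if footprints were spread evenly over codons. For CDH1 it was 0.0693, 0.0688 and 0.0942 with 1.5 µM at 10 min and 0.206, 0.255 and 0.221 with vehicle. The second study gave 0.0897 and 0.0747 against 0.212 and 0.243. Vehicle libraries were thus near the even value and treated libraries well below it, without overlap. The log2 ratio changed by -1.52 within experiments (exact permutation p = 0.0167, the smallest possible, adjusted p = 0.0333). It was lower in 5 of 5 same-numbered pairs (paired exact permutation p = 0.0625, the smallest possible, so that this test could not pass).

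For CDH2 the ratio was 0.157, 0.185 and 0.171 with 1.5 µM at 10 min against 0.180, 0.216 and 0.233, and 0.244 and 0.213 against 0.257 and 0.291 in the second study. The log2 ratio of CDH2 changed by -0.28 (exact permutation p = 0.0333, adjusted p = 0.0333) and was lower in 5 of 5 same-numbered pairs as well (paired exact permutation p = 0.0625, the smallest possible). It no longer passed (p = 0.05 to 0.0833) without 1.5 µM replicate 1 (-0.25) or 3 (-0.28) or vehicle replicate 2 (-0.26) or 3 (-0.24) at 10 min, without 1.5 µM replicate 5 (-0.23) or vehicle replicate 5 (-0.23) of the second study by exact permutation, or with the stretch ended 30 codons after the window (-0.25, p = 0.05). Groups overlapped at 10 min. In mRNA-seq of the second study's cultures the CDH2 ratio was 0.231 and 0.272 with 1.5 µM and 0.224 and 0.185 with vehicle. These did not overlap, and the direction was opposite to that of the footprints. The difference between the genes, chosen for testing after values were seen, was -1.24 on the log2 scale for the ratio (exact permutation p = 0.0167, adjusted over 2 p = 0.0333), with CDH1 the more reduced. For the share on the stretch it was -0.646 percentage points (exact permutation p = 0.55), and it had opposite signs in the 2 experiments, -2.89 at 10 min and 1.6 in the second study.

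**Figure D4:**
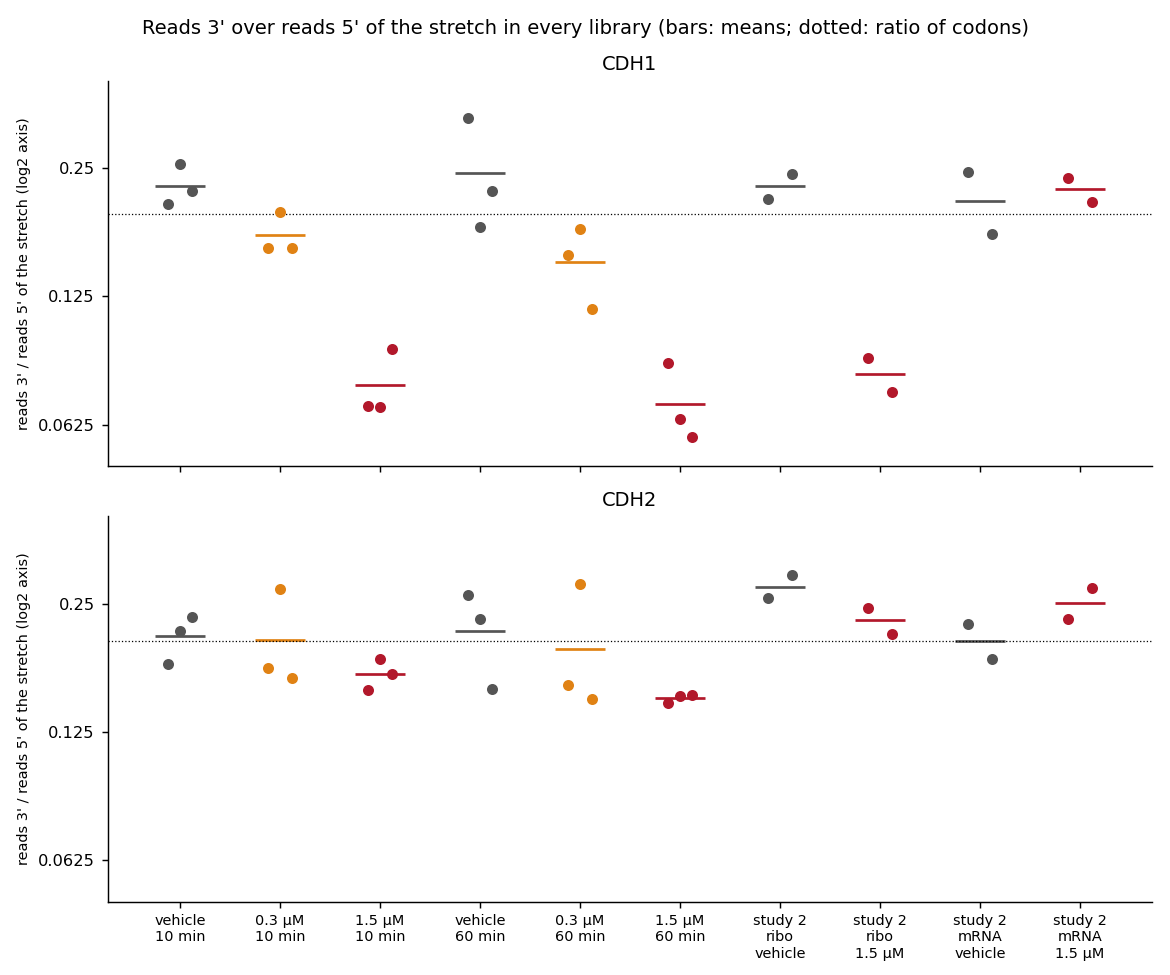
Ratio of 3′ to 5′ footprints of CDH1 and CDH2 in each library by treatment and experiment, with mRNA-seq for the second study. CDH1 libraries at 1.5 µM lie between 0.0586 and 0.0942 in ribo-seq, below every vehicle library, while CDH2 groups lie closer together.

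With 0.3 µM the 3′ part of CDH1 did not pass the test, while footprints at codon 729 were as high as with 1.5 µM at 10 min. Codon 729 rose by 2.40 RPM with 0.3 µM and 2.39 with 1.5 µM at 10 min. The CDH1 stretch held 7.93, 5.33 and 6.65% of footprints with 0.3 µM at 10 min and 6.05, 4.61 and 3.64% at 60 min, and that of CDH2 held 6.21, 9.59 and 6.09% and 6.53, 8.08 and 8.80%. The shares at this dose were not tested. At 10 min the CDH1 3′ part held 129, 178 and 132 normalised CPM with 0.3 µM and 173, 222 and 166 with vehicle. At 60 min the values were 111, 159 and 106 against 178, 181 and 166. Treated and vehicle libraries overlapped at 10 min and were separate at 60 min, and within same-numbered pairs the treated library was lower in 3 of 3 at either time. The log2 changes of CDH1 were -0.35 ± 0.21 at 10 min and -0.48 ± 0.20 at 60 min (edgeR, unadjusted p = 0.125 and 0.0327, adjusted p = 0.9999 and 0.9997). Those of CDH2 were 0.19 ± 0.23 and -0.10 ± 0.23. With the replicate block the CDH1 values were -0.36 ± 0.18 and -0.50 ± 0.17 (edgeR, adjusted p = 0.9993 and 0.9996). These comparisons share vehicle libraries with those of 1.5 µM, and the 60-min vehicle libraries are among those that chose CDH1, so its 60-min values are no independent test. At this dose edgeR called 0% of transcripts in either part at either time. At an unadjusted p under 0.05 there were 148 of 9417 (10 min) and 125 of 9373 (60 min) transcripts in the 3′ part, and 101 of 10978 and 114 of 11002 in the 5′ part. These counts are below what that threshold alone would give, so the unpaired test was conservative here. DESeq2 also called 0 in each part at each time. Between the doses at 10 min, the 3′ part of CDH1 differed by -1.08 ± 0.20 with 1.5 µM (edgeR, adjusted p = 0.232), with 0.0111% of transcripts called. With the replicate number as a block the adjusted p was 0.0945, which passed, as it did without 0.3 µM replicate 1 (-1.16, adjusted p = 0.0849) or 2 (-0.92, 0.0891). CDH2 differed by -0.24 ± 0.22 (edgeR, adjusted p = 0.8045). For the 5′ part edgeR called 0% between the doses, with 1280 of 10876 transcripts at an unadjusted p under 0.05, while DESeq2 called 93 and the replicate block 90.

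The mRNA of the 2 genes did not change detectably over the whole coding sequence in the second study. CDH1 had 103 and 107 normalised CPM in mRNA-seq with 1.5 µM and 113 and 102 with vehicle, and CDH2 had 107 and 95.7 against 98.8 and 94.6. The log2 changes were -0.03 ± 0.10 and 0.07 ± 0.10 (edgeR, adjusted p = 0.9991), where 0% of transcripts were called and 228 of 11812 had an unadjusted p under 0.05 (1 called by DESeq2). In vehicle, footprints per mRNA fragment were 2.13 for CDH1 and 2.40 for CDH2, each as a ratio of RPM per kilobase. Translational efficiency, the change of footprints beyond that of mRNA, was 0.11 ± 0.11 for CDH1 and 0.04 ± 0.12 for CDH2 over the whole coding sequence (edgeR interaction, adjusted p = 0.9999, 0.0339% called). Over the 3′ part it was -1.24 ± 0.25 for CDH1 (edgeR, adjusted p = 0.116, 0.0748% called) and -0.40 ± 0.22 for CDH2 (adjusted p = 0.9999). In that part CDH2 had 112 and 114 normalised CPM in mRNA-seq with 1.5 µM and 98.1 and 81.7 with vehicle. Its footprints there changed by -0.08 only, so most of the CDH2 value came from mRNA fragments. With the replicate number as a block the CDH1 efficiency of the 3′ part was -1.26 and passed (adjusted p = 0.0215), and with a block for each culture, an alternative added after seeing the data, its adjusted p was 0.0525. It also passed without the vehicle mRNA-seq library of replicate 4 (-1.51) or 5 (-1.03), fits that leave 1 library in that group.

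No other tested member of the cadherin family passed the test. Of 58 family members listed, 21 were measured and 14 tested in the 3′ part, and CDH1, the gene chosen for this pattern, was the 1 called, in the second study (0.135% of all transcripts called) and at 10 min (4.63%). The family's median log2 change was -0.21 and -0.01. The calsyntenin CLSTN1 (-0.35 ± 0.15), the protocadherin PCDH7 (-0.30 ± 0.37) and PCDH17 (0.56 ± 0.31) had the next largest values in the second study, and none passed (edgeR, adjusted p = 0.9999). PCDH7 was not divided at a window of its own but at the length fractions of CDH1. Some tested members had few reads. The 3′ part of PCDH17 held a mean of 29 with vehicle in the second study, against 528 and 359 for CDH1. The lack of a call says less for such genes. Of the 15 other cadherins divided at a window, the mean share on the stretch was higher with 1.5 µM in 10 and lower in 5 at 10 min, and higher in 8 and lower in 7 in the second study. Genes with few reads count alike in this tally, such as CDH24 with a mean of 7.67 reads with 1.5 µM and 7.33 with vehicle at 10 min. The shares were not tested, and the members named here were chosen after their values were seen. At 10 min DSG2 had 6.90% ± 0.77 of its footprints on the stretch with 1.5 µM and 3.58% ± 0.45 with vehicle, and CDH17 had 6.62% ± 0.73 and 3.67% ± 0.24 (SD, n = 3). At 60 min in the first study CDH17 showed no rise, with 5.27% ± 0.29 and 5.33% ± 1.975 (SD, n = 3). In the second study DSG2 had 5.58% and 5.36%, CDH17 5.44% and 3.73%, and the calsyntenin CLSTN3 4.15% and 2.15%. The protocadherins PCDHB8 (3.51% and 6.99%) and PCDHB16 (9.65% and 13.7%) went the other way there. In mRNA-seq CDH17 had 8.66% and 3.61%.

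**Figure D5:**
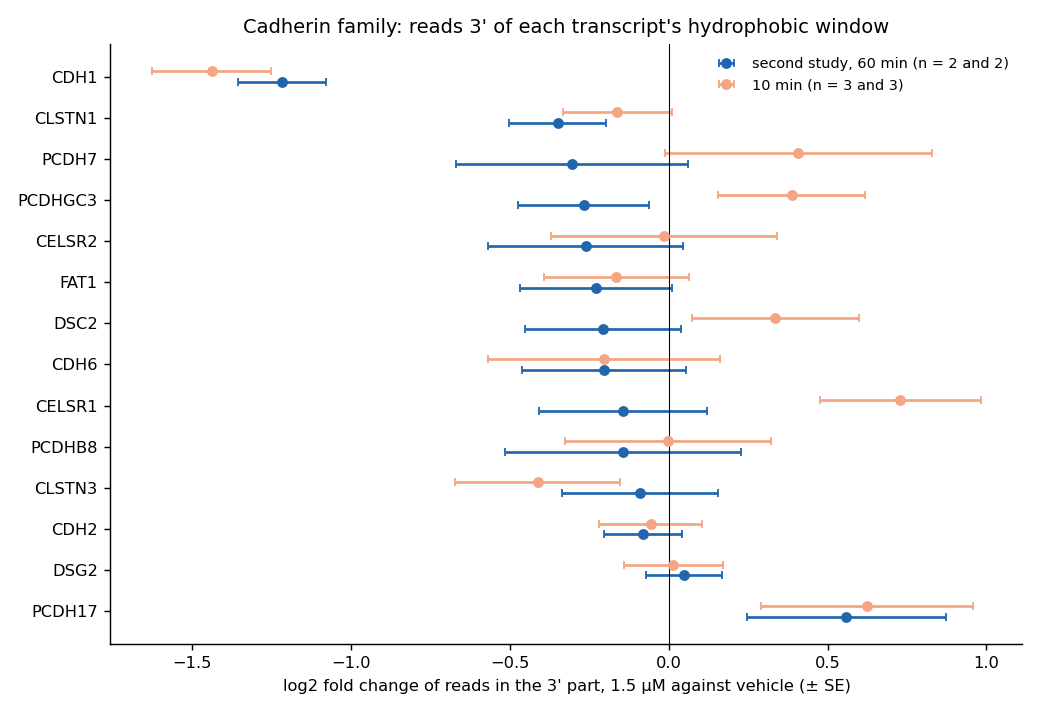
Log2 change of footprints in the 3′ part of each tested cadherin family member, 1.5 µM against vehicle, with SE bars (n = 2 per group in the second study, 3 at 10 min). CDH1 lies at -1.22 and -1.44, and CDH2 at -0.08 and -0.06. Members without a window of their own, such as PCDH7, were cut at the length fractions of CDH1.

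Genes that act with the cadherins were taken as 4 lists. Those that are not cadherins were cut at the same fractions of their length as CDH1, so that their 3′ part is the last 15.6% of codons. The measured transcripts of PSENEN, ADAM10 and TCF3 were short, with 102, 125 and 213 codons, and their values hold for these transcripts alone. Their 3′ parts are few codons that end at the stop codon, where the paper reports a build-up of reads with or without the compound. Of the catenins and junction plaque proteins, edgeR called 0 of 16 tested in the 3′ part in the second study and 0 of 15 at 10 min, where CTNNAL1, CTNND1 and CTNNA1 were among the 1651 of 9048 transcripts with an unadjusted p under 0.05, and median log2 changes were -0.06 in the second study and 0.05 at 10 min. Footprints of their central members were abundant in vehicle, with the β-catenin gene CTNNB1 at 1007, CTNNA1 (α-catenin) at 123 and CTNND1 (p120-catenin) at 82.3 RPM per kilobase. PLEKHA7 (-1.09 ± 0.51) and CTNND2 (-0.86 ± 0.33) had the largest values of the list in the second study, both among the 401 of 9616 transcripts with an unadjusted p under 0.05, and with an edgeR adjusted p of 0.9999. In the 5′ part at 10 min EZR (ezrin, a linker of membrane and actin) fell by 0.39 (edgeR, adjusted p = 0.0907), where 2.35% of all transcripts were called. Among other adhesion genes OCLN, the tight junction protein occludin, changed at 10 min by -0.98 ± 0.24 in the 3′ part (edgeR, adjusted p = 0.0548), and stood at -0.25 ± 0.21 in the second study. Among genes of cadherin shedding and turnover, PSENEN, a γ-secretase subunit, changed at 10 min by -1.20 ± 0.31 (edgeR, adjusted p = 0.0618), and PTPN1, a phosphatase, was higher by 0.68 ± 0.20 (adjusted p = 0.0897). Of 12 regulators and markers of epithelial-mesenchymal transition measured, TCF3, a transcription factor that binds E-boxes, was higher at 10 min by 1.42 ± 0.32 (edgeR, adjusted p = 0.0420). OCLN, PSENEN, PTPN1 and TCF3 (0.76 ± 0.35) were not called in the second study, nor were ADAM10, which sheds cadherin ectodomains (0.39 ± 0.40), or SNAI1, a repressor of CDH1 transcription (0.12 ± 0.31), and the 10-min calls in the 3′ part, 4 genes over the 4 lists, are to be read against the 4.63% of transcripts called there.

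Levels of the 3′ part were taken as log2 RPM, centred on the vehicle mean of each experiment. They covered the 5657 transcripts with a mean of 50 reads or more in that part. The transcripts whose levels varied most like those of each cadherin over the 22 ribo-seq libraries were listed by Pearson's r. For CDH1 they were RPL27 (a ribosomal protein, r = 0.954), BCAP31 (a membrane protein of the endoplasmic reticulum, 0.952), PCBP2 (an RNA-binding protein, 0.939), HSD17B11 (0.929) and MAPRE1 (0.925), and r between CDH1 and CDH2 was 0.606. For CDH2 they were SF3B2 (a splicing factor, r = 0.927), the nuclear import receptors KPNB1 (0.88) and IPO7 (0.849), IWS1 (0.826) and SMC2 (0.815). The points share treatment groups, libraries and depth, and the libraries that chose CDH1 are among them, so these values are a description.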

How the data were processed

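Ribo-seq and mRNA-seq were compared between PF-06446846 and vehicle. The authors removed adapters with the Fast-X toolkit and ribosomal reads with Bowtie 1.1.2, chose the most abundant isoform of each gene with kallisto 0.42.5, aligned reads to those Ensembl transcripts (GRCh38), and deposited whole-number counts of inferred P sites per codon, not normalised. Reads with several equal best sites were counted at each of them, up to a limit.

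Transcripts were named from GENCODE v44 (11270 of 12325 matched). Where one was found, cadherins were divided at their most hydrophobic window of 21 codons (highest mean hydropathy after residue 100) plus 15 codons. Every other transcript, PCDH7 among them, was divided at the same fractions of its length as CDH1. Counts were tested with edgeR 4.0.16 (R 4.3.3; quasi-likelihood test, TMM, filter on low counts, false discovery rate 0.1 over all transcripts tested), checked on simulated data. DESeq2 1.42.0, RLE factors, no filter, other boundaries, leaving out the first 50 or last 15 codons, a replicate block and leaving out each library were alternatives. Single values were compared by two-sided exact permutation tests with labels exchanged within experiments. Samples were grouped by their labels. Members and lists were chosen with earlier results of these data known. The genes named were CDH1, CDH2, from each list those that passed or, up to 4, had the largest change in the second study's 3′ part, and the 5 transcripts most like each cadherin. Named outside this rule, after values were seen, were DSG2, CDH17, CDH24, CLSTN3, PCDHB8 and PCDHB16 for stretch shares, CTNNB1, CTNNA1, CTNND1, CLSTN1, DSG2 and DCN for levels, and CTNNAL1, CTNND1 and CTNNA1 for unadjusted p. P-values measure the spread between these libraries, and reads were not molecule-tagged.

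Same-numbered libraries deviated together in 0.3 µM against vehicle at 60 min (r of 0.347 to 0.423) and 10 min (0.151 to 0.417) and in 1.5 against 0.3 µM at 10 min (0.176 to 0.301), and those numbers were taken as pairs. In 1.5 µM against vehicle at 10 min r was 0.166, 0.189 and 0.0749, and these were not taken as pairs because of the last. Pairs in the other 2 contrasts would make them pairs here too. All main tests were unpaired, and the replicate block or a paired permutation is given as an alternative. In the second study, ribo-seq and mRNA-seq of 1 number came from the same culture per the study's methods. Between 1.5 µM and vehicle, r of same-numbered libraries was 0.157 in its ribo-seq and 0.0539 in its mRNA-seq. Each is a single value, since with 2 libraries per group both numbers give the same r.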

Additional observations from a re-analysis of the deposited data

How the results depend on the processing

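The fall of the CDH1 3′ part passed under all 11 alternatives in the second study (log2 change -1.39 to -0.95) and all 13 at 10 min (-1.51 to -1.29). In all, 301 alternative values kept their direction and side of the threshold, 28 changed sign, 11 newly passed and 20 no longer passed. The cause was not tested.

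Values near 0 that changed sign were CDH2 3′ at 10 min (0.000507 with its start 30 codons after the window), CDH1 5′ at 10 min (-0.0065 with the replicate block, -0.00277 without the first 50 codons) and CDH1 5′ between doses (0.000936 with RLE, 0.000927 with DESeq2, 0.00897 unfiltered, 0.00356 without the first 50 codons). CDH1 3′ between doses passed with DESeq2 (-1.08, adjusted p = 0.0198) and the replicate block (-1.08, adjusted p = 0.0945). Its 3′ translational efficiency passed with RLE and DESeq2 (-1.25 and -1.24), unfiltered (-1.24) and with the block by number or, added after seeing the data, by culture (both -1.26). The block changed no other call. Each also passed without either of 2 libraries (0.3 µM replicates 1 and 2; vehicle mRNA-seq replicates 4 and 5).

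Counts of transcripts called moved more. Against edgeR's 10 (second study, 5′), 256 (10 min, 5′), 1 and 0 (between doses, 3′ and 5′), 0 (mRNA), 4 and 8 (efficiency, whole and 3′), DESeq2 called 16, 579, 8, 93, 1, 11 and 13. The replicate block called 57, 1148, 7 and 90 in the first 4 of these, and 13 and 14 for efficiency. In the 3′ part of the second study it called 49 against 13. Same-numbered ribo-seq libraries gave r = 0.157 there, and the main test was unpaired. Unfiltered, 23 against 13 (second study, 3′) and 646 against 419 (10 min, 3′) were called.

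One experiment alone cannot pass: the log2 ratio was -1.56 (10 min) and -1.47 (second study) for CDH1 and -0.29 and -0.26 for CDH2, and the stretch share difference was 1.82 and 2.84 points for CDH1 and 4.71 and 1.24 for CDH2. With the stretch ending 30 codons after the window, the CDH1 share difference was 1.31 (exact permutation p = 0.15) and the CDH2 log2 ratio -0.25 (p = 0.05).

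Leaving out 1 library at a time, log2 changes ranged as follows. CDH1 ranged from -0.14 to 0.065 (5′, 10 min), -0.10 to 0.31 (5′, 0.3 µM, 60 min), -0.051 to 0.066 (5′, 0.3 µM, 10 min), -0.53 to -0.20 (3′, 0.3 µM, 10 min), -1.16 to -0.92 (3′ between doses), -0.13 to 0.076 (5′ between doses), -0.10 to 0.043 (mRNA) and -1.51 to -1.03 (3′ efficiency). CDH2 ranged from -0.22 to 0.054 (3′, second study), 0.028 to 0.19 (5′, 10 min), -0.34 to 0.044 (3′, 0.3 µM, 60 min), -0.047 to 0.087 (5′, 0.3 µM, 60 min), -0.13 to 0.32 (3′, 0.3 µM, 10 min), -0.37 to 0.066 (3′ between doses), -0.013 to 0.15 (mRNA) and -0.042 to 0.13 (efficiency). Whole-sequence efficiency of CDH1 ranged from 0.040 to 0.17. For CDH2 the further ranges were -0.12 to -0.013 (3′, 10 min), 0.086 to 0.21 (5′, second study) and -0.55 to -0.27 (3′ efficiency). The CDH1 share difference ranged from 2.04 to 2.67 points and the CDH2 log2 ratio from -0.33 to -0.23, and both lost the call without some libraries.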
